A study of Mus musculus with 16 samples.

Results

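Peaks of the repressive histone mark H3K27me3 that lie in the gene deserts of the mouse genome were described in splenic B cells with and without an inhibitor of the enzyme that writes the mark. Peaks of 4 deposited lists on chromosomes 1 to 19 were merged wherever they shared at least 1 bp, which gave 55860 regions. Of these, 3748 regions (6.71%) lay at least 100 kb from the nearest protein-coding gene body of the RefSeq annotation of GRCm38 and are called far regions here. The remaining 52112 regions comprised 23763 that overlapped a coding gene body and 28349 that lay between genes but within 100 kb of one.

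B cells came from the spleens of C57BL/6 mice aged 6 to 8 weeks and were purified with CD43 magnetic beads. Culture lasted 48 h in the presence of BAFF and IL-4, cytokines that sustain B cells, with either the solvent DMSO or 1 µM of the EZH2 inhibitor GSK343. The mice were wild type (WT) or an Ifih1/Rigi/cGAS triple mutant, whose alleles the labels do not describe, and the 3 genes encode cytosolic sensors of RNA or DNA. The 16 samples comprise 2 ChIP and 2 input libraries for each genotype and treatment, and each such set is represented by 1 peak list, which reads as called on pooled duplicates. The peak names of both mutant lists carry a 1 after the genotype and treatment, so that they may rest on replicate 1 alone. Without values per replicate, no difference between lists could be tested against a spread between replicates, and read depth is unknown. Every difference given below therefore describes these lists, and a region without a peak is one that did not pass the authors' peak caller. The purity of the cells can be read only indirectly from a repressive mark. The gene bodies of the B cell genes Cd79a, Cd79b, Ms4a1, Pax5, Ebf1, Cd22 and Cr2 held no peak in any list, whereas the T cell genes Cd3e and Cd4 and the myeloid gene Mpo held peaks in both DMSO lists. Cd8a, Csf1r and Itgam held none.

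H3K27me3 is deposited by Polycomb repressive complex PRC2, whose catalytic subunit is EZH2 or EZH1. In vertebrates PRC2 is known to concentrate on CG-rich stretches of DNA, many of them at silent developmental genes, and to spread thinly over wide intergenic stretches. Gene deserts often flank genes for developmental transcription factors and hold their distant enhancers, long noncoding RNAs (lncRNAs) and microRNAs (miRNAs). They also hold the antigen receptor loci, whose gene segments are annotated separately from protein-coding genes.

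Start windows of lncRNAs are shown first, because the number of CG dinucleotides in them differed between windows that held a peak under GSK343 and windows that did not. Each window runs from 250 bases before to 50 bases after an annotated start and is printed 5′ to 3′ on the strand of the gene, from RefSeq on GRCm38.p6, with every CG in capitals. The window of 9530059O14Rik (chr9:122572251-122572550, plus strand) held 38 CG and that of Tunar (chr12:105336743-105337042, plus strand) held 30, and each overlapped a peak in all 4 lists. The window of Mir100hg, the host transcript of a miRNA cluster (chr9:41376276-41376575, plus strand), held 15 CG and overlapped a peak in both DMSO lists and the mutant GSK343 list. The window of 5730522E02Rik (chr11:26210527-26210826, minus strand) is a CG-rich window without a GSK343 peak, with 33 CG and peaks in the DMSO lists alone. The window of Morrbid, an lncRNA known to regulate the survival of myeloid cells (chr2:128429302-128429601, minus strand), held 8 CG and overlapped a peak only in the mutant DMSO list.
9530059O14Rik: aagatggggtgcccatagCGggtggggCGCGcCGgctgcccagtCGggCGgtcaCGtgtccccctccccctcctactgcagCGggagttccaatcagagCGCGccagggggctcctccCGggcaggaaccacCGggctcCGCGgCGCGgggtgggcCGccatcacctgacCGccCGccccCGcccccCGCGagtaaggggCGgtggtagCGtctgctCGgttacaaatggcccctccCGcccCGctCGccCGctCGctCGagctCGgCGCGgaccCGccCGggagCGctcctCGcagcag
Tunar: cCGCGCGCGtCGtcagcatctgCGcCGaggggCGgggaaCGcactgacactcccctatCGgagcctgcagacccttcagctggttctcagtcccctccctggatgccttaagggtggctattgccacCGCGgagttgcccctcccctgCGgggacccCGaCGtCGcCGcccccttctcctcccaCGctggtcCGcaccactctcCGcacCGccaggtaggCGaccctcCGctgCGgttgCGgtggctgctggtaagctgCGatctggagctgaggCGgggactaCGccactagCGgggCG
Mir100hg: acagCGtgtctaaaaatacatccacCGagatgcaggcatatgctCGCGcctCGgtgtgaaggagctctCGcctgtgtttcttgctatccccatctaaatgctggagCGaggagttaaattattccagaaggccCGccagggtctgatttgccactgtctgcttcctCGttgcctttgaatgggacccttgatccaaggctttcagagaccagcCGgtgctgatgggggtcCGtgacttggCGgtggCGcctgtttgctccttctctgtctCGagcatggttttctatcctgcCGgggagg
5730522E02Rik: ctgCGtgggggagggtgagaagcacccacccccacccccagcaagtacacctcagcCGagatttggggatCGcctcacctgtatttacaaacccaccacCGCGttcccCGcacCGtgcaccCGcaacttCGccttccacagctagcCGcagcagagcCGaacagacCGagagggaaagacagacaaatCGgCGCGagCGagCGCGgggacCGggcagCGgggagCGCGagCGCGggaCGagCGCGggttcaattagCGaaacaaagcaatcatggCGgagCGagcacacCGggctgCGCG
Morrbid: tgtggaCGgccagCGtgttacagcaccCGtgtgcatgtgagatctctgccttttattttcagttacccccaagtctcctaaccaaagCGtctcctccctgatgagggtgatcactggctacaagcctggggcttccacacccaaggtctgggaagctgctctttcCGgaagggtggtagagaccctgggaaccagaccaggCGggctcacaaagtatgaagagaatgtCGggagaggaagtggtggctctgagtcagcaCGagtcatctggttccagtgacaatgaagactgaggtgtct

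Far regions held a peak mostly under DMSO. The WT DMSO list had a peak in 1661 far regions, or 44.3% (95% Wilson interval 42.7 to 45.9%), and the WT GSK343 list in 235, or 6.27% (5.54 to 7.09%). In mutant cells the counts were 3074 (82.0%, 80.8 to 83.2%) under DMSO and 169 (4.51%, 3.89 to 5.22%) under GSK343. Both DMSO lists thus reached far more of these regions than either GSK343 list. Over all merged regions the shares with DMSO and then GSK343 were 54.7% and 13.7% in WT, and 84.7% and 11.3% in the mutant. Intervals here and below cover the counting of regions only, and neighbouring regions are not independent of each other. The bases inside peaks of far regions came to 2.48 Mb under DMSO and 0.266 Mb under GSK343 for WT, and to 5.11 Mb and 0.175 Mb for the mutant. Covered bases were therefore 89.3% lower with the inhibitor in WT and 96.6% lower in the mutant. Over all merged regions they were 74.9% and 87.3% lower, and in intergenic regions within 100 kb of a gene 88.5% and 96.3% lower. Where 4 values are given together below, they follow this order, WT with DMSO and then GSK343, mutant with DMSO and then GSK343. Far regions made up 4.98% of the peaks of WT DMSO and 6.43% of those of mutant DMSO, but 2.42% and 1.96% of the peaks of the 2 GSK343 lists.

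**Figure D1:**
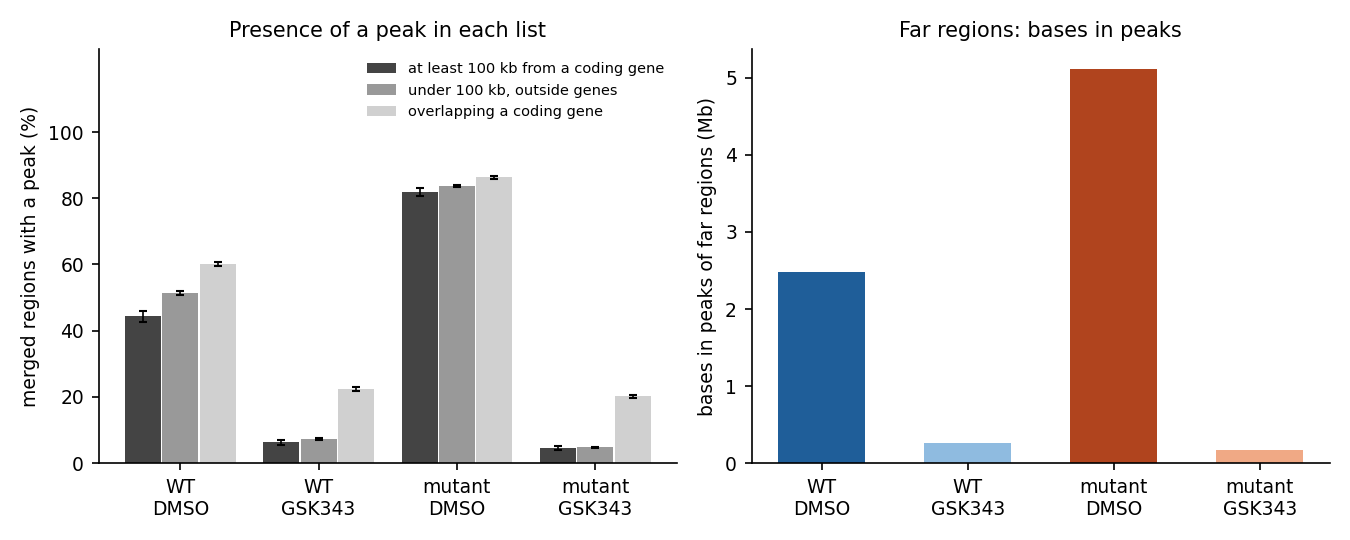
Left, share of merged regions with a peak in each list (percent, bars; error bars, 95% Wilson intervals) for regions at least 100 kb from a coding gene, regions between genes within 100 kb of one, and regions overlapping a coding gene. Right, megabases inside peaks of the far regions per list. In the left panel the 2 intergenic classes have similar bars in both GSK343 lists, 6.27% and 7.28% in WT and 4.51% and 4.74% in mutant cells, below the 22.4% and 20.1% of regions overlapping a gene.

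The combination of lists in which a far region appeared was dominated by the mutant DMSO list. That list alone held 2009 far regions (53.6%), with a median width of 656 bp. Both DMSO lists and neither GSK343 list held 815 (21.7%), with a median width of 2007 bp, and WT DMSO alone held 604 (16.1%), with a median width of 451 bp. Regions found in 1 list were thus the narrow ones. These widths are of merged regions, which can only widen as peaks of further lists join them, and the part of this was not tested. Among the other regions the mutant DMSO list alone was also the most frequent combination, at 43.4%. Both DMSO lists without GSK343 made up 26.3% there and WT DMSO alone 14.1%. Only 82 far regions (2.19%) had a peak in all 4 lists, against 9.62% of the other regions, and their median width was 7217 bp. The other regions include those overlapping a gene. A peak in both GSK343 lists was held by 84 of 3748 far regions and by 855 of 28349 intergenic regions within 100 kb of a gene. Of the 23763 regions overlapping a gene, 4225 held one. A peak under GSK343 without any DMSO peak in either genotype was rare, with 25 regions in WT alone, 26 in mutant alone and 1 in both. These were 0.667%, 0.694% and 0.0267% of the far regions, against 0.528%, 0.226% and 0.0710% of the other regions.

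Far regions were narrower than the rest. Their median width was 811.5 bp, from 177 bp to 28959 bp, against 1040 bp for the other regions, and 212 of them (5.66%) reached 5 kb, against 13.5% of the others. The median width of single peaks in far regions was 745.5, 690, 861 and 567 bp in the 4 lists. In intergenic regions within 100 kb of a gene it was 814, 710, 1014 and 634.5 bp, nearer to these values. Far peaks of at least 5 kb numbered 68, 0, 192 and 2. Wide far peaks were hence almost confined to the DMSO lists. The median fold, the authors' ratio of ChIP over background at a peak, was 2.44, 2.84, 2.29 and 2.81 in the 4 lists, against 2.49, 2.97, 2.34 and 2.92 in the other regions and 2.45, 2.83, 2.31 and 2.79 in the intergenic regions within 100 kb of a gene. Within each list the far peaks thus had nearly the fold of intergenic peaks near genes. The median distance to a coding gene was 181.5 kb, 1676 regions were at least 200 kb away, 349 at least 500 kb and 29 at least 1000 kb.

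The response to EZH2 inhibition was read from the regions with a DMSO peak that had no GSK343 peak of the same genotype, called lost here, the others being called kept. The lists differed in the folds of the peaks they hold. The lower quartile of far peaks was 2.72 in WT GSK343, above the upper quartile of 2.59 in WT DMSO. In the mutant these quartiles were 2.69 and 2.43. Most DMSO peaks thus had a fold at which the GSK343 lists held few peaks, and the part of this in the lost shares was not tested. In WT cells 1465 of 1661 far regions were lost, or 88.2% (86.6 to 89.7%), against 76.6% of all merged regions. In mutant cells 2933 of 3074 were lost, or 95.4% (94.6 to 96.1%), against 87.2% of all merged regions. Loss was thus more frequent in far regions than in the whole set in both genotypes. The share of DMSO-covered bases that lay in a GSK343 peak was 9.01% in WT and 3.20% in mutant cells. This was smaller than the 24.5% and 12.8% of the other regions, but close to the 10.0% and 3.55% of intergenic regions within 100 kb of a gene. The lost shares depended on the threshold. When peaks below a fold of 3 were left out of every list, 61.8% of 89 WT and 60% of 95 mutant far regions were lost, against 25.2% and 37.3% of the other regions. If a region counted as kept only when GSK343 peaks covered 50% of its DMSO bases, 98.2% and 99.7% were lost, against 94.4% and 98.8% of the others. The reverse call, a GSK343 peak without a DMSO peak, applied to 39 of 235 far regions in WT (16.6%, against 6.36% of all regions) and to 28 of 169 in the mutant (16.6%, against 3.52%). In intergenic regions within 100 kb of a gene it applied to 12.7% in WT and 7.15% in the mutant.

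The share of regions lost differed little with distance once a region lay more than 10 kb from a gene. In WT cells the lost share was 64.0% for regions overlapping a coding gene, 85.7% for those under 10 kb from one, 89.1% from 10 to 50 kb and 88.0% from 50 to 100 kb. Beyond the 100 kb limit it was 87.5% up to 200 kb, 89.3% up to 500 kb and 88.6% (82.5 to 92.8%) above that. In mutant cells the series was 77.2%, 93.8%, 95.4% and 95.2% for the regions nearer than 100 kb, and 94.3%, 96.4% and 98.2% (95.8 to 99.2%) for the far ones. From 10 kb outward the intervals of neighbouring classes overlapped in both genotypes, although the mutant values of the far classes grew with distance. By bases the far classes did differ: GSK343 peaks covered 11.0% of the WT DMSO bases from 100 to 200 kb, 5.80% from 200 to 500 kb and 5.34% beyond, and 4.18%, 1.94% and 0.770% of the mutant ones. The excess of lost regions over the whole set was shared with the intergenic regions near genes, of which 87.6% were lost in WT and 94.7% in mutant cells. Around the limit, regions from 90 to 100 kb away were lost in 90.2% of cases in WT and 96.3% in the mutant, and those from 100 to 110 kb in 89.2% and 93.1%.

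**Figure D2:**
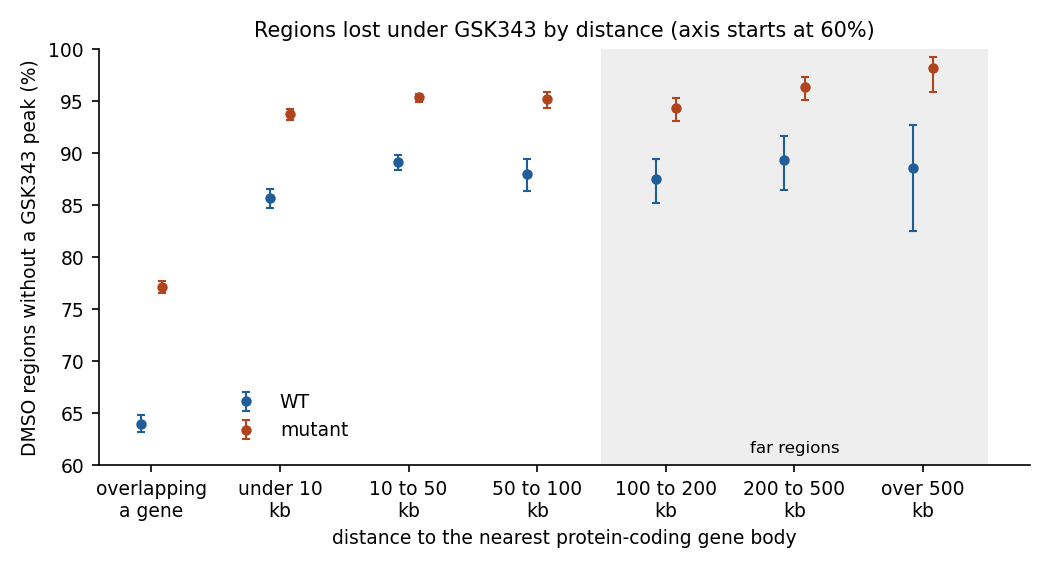
Percentage of regions with a DMSO peak that had no GSK343 peak of the same genotype (vertical axis, starting at 60%) by distance to the nearest protein-coding gene body, in WT (blue) and mutant (orange) cells, with 95% Wilson intervals and far regions shaded. The step lies between regions overlapping a gene (64.0% and 77.2%) and all intergenic classes, which range from 85.7% to 89.3% in WT and from 93.8% to 98.2% in mutant cells.

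Width under DMSO separated kept from lost far regions more clearly than distance. The widest DMSO peak of the 196 kept WT regions had a median of 3313.5 bp (quartiles 1597.5 and 5606 bp), against 653 bp (348 and 1149 bp) in the 1465 lost ones. For the 141 kept mutant regions the median was 5152 bp (2998 and 8471 bp), against 828 bp (451 and 1626 bp) in the 2933 lost ones. The middle ranges of kept and lost regions did not overlap in either genotype. Median DMSO fold was also higher in kept regions, 2.77 against 2.42 in WT and 2.99 against 2.28 in mutant cells. Median distance differed little, 169 kb against 177 kb in WT and 160 kb against 182 kb in the mutant. Even kept regions retained little of their extent: the median widest GSK343 peak in them was 824.5 bp in WT and 688 bp in mutant cells, and GSK343 peaks covered 23.2% and 16.3% of their DMSO bases. A wide region offers more bases on which a GSK343 peak can fall, and the part of this in the difference was not tested.

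By width, the lost share of WT far regions was 99.5% under 0.5 kb, 97.6% from 0.5 to 1 kb, 93.8% from 1 to 2 kb, 85.2% from 2 to 5 kb, 58.1% from 5 to 10 kb and 29.6% (19.1 to 42.8%) above 10 kb. In mutant far regions it was above 99% up to 2 kb, then 90.8%, 72.4% and 37.0% (25.4 to 50.4%). Intergenic regions within 100 kb of a gene had like values at like width, with 30.9% lost above 10 kb in WT and 45.1% in mutant cells.

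**Figure D3:**
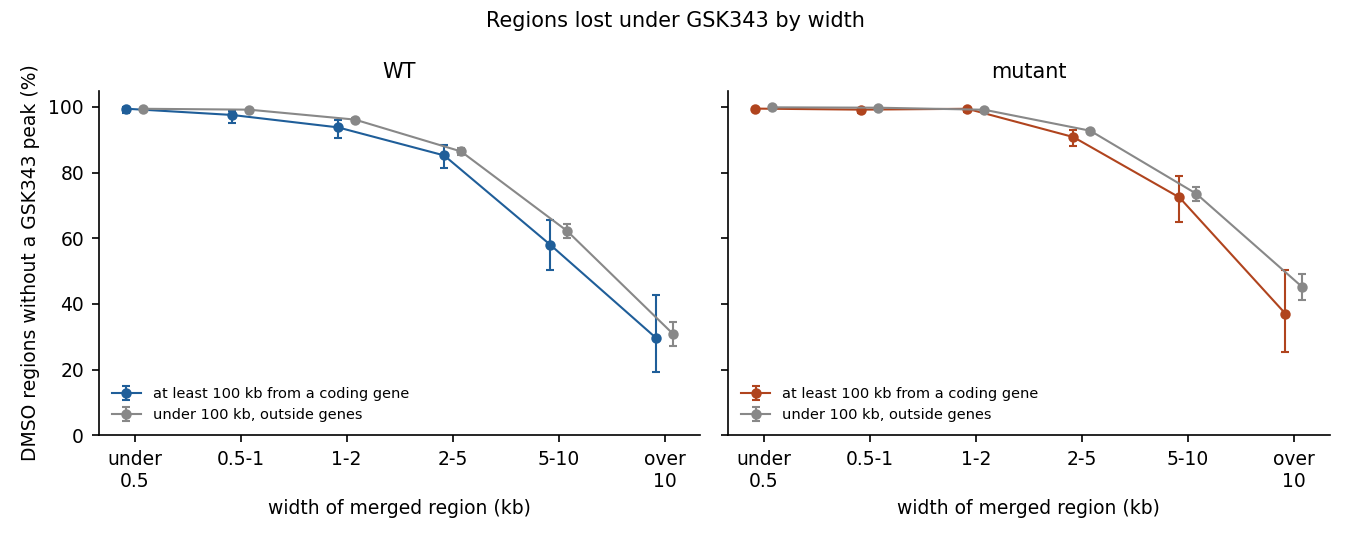
Percentage of DMSO regions without a GSK343 peak (vertical axis) by width of the merged region in kb, for far regions (coloured) and for intergenic regions within 100 kb of a coding gene (grey), in WT (left) and mutant (right) cells, with 95% Wilson intervals. In both panels the lost share is near 100% for the narrowest regions and below 50% for those wider than 10 kb, and the intervals of the far regions overlap those of the grey points in the 2 widest classes.

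The 2 genotypes differed under DMSO in the direction of more peaks in the mutant list. Far regions with a peak were 1.85 times as many in mutant as in WT DMSO, and covered bases 2.07 times as many, against 1.53 and 1.56 times in the other regions. Of the intergenic regions within 100 kb of a gene, 14581 had a peak in WT DMSO and 23725 in mutant DMSO, covering 25.8 and 48.5 Mb. Of the mutant DMSO far regions, 2035 of 3074 had no WT peak (66.2%, 64.5 to 67.9%), against 52.5% of all regions. Of the WT DMSO far regions, 622 of 1661 had no mutant peak (37.4%, 35.2 to 39.8%), against 26.4% of all. Far regions thus overlapped less between the genotypes than the whole set did, in both directions. Intergenic regions within 100 kb of a gene lay in between. Of these, 57.0% of the mutant DMSO regions had no WT peak and 30.0% of the WT DMSO regions had no mutant peak. Under GSK343 the order turned, and the mutant list had 0.719 times as many far regions with a peak as WT and 0.658 times the covered bases. The order turned in the other regions too, at 0.829 and 0.802 times. Of the intergenic regions within 100 kb of a gene, 2064 had a peak in WT GSK343 and 1343 in mutant GSK343, covering 2.95 and 1.82 Mb. Among far regions under GSK343, 151 of 235 WT regions had no mutant peak (64.3%, against 32.3% of all). Conversely, 85 of 169 mutant regions had no WT peak (50.3%, against 18.0% of all). In intergenic regions within 100 kb of a gene these shares were 58.6% and 36.3%. The read depth of the lists was not available, so its part in these genotype differences was not tested. On every chromosome the mutant DMSO list exceeded the WT one, from 1.5 times as many far regions on chromosome 6 to 2.90 times on chromosome 15.

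Far regions were spread very unevenly over the deserts. Of 1376 gaps of more than 200 kb between neighbouring coding genes, 535 (38.9%) held at least 1 far region, and 52 gaps held 50% of the far regions. The space at least 100 kb from a coding gene made up 654 Mb, or 27.3% of the span of the coding genes, and held 5.71 regions per Mb, against 29.9 per Mb elsewhere. Neighbouring far regions lay a median of 5.10 kb apart, and 61.5% of these intervals were under 10 kb. The most regions, 228, lay in the immunoglobulin kappa locus on chromosome 6. Next were the gap between Id2, an inhibitor of E protein transcription factors, and Rnf144a with 83, the T cell receptor alpha and delta locus with 75, and the gap between the lymphoid transcription factor gene Ets1 and Kirrel3 with 71. In the Id2 gap, peaks covered 51307 bp with DMSO and 2860 bp with GSK343 in WT, and 102805 bp with DMSO and none with GSK343 in the mutant.

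Antigen receptor loci accounted for 318 far regions (8.48%). Igk, the kappa light chain locus that B cells rearrange, held 228, of which 142, 19, 181 and 8 had a peak in the 4 lists. Peaks covered 229 kb, 16.2 kb, 426 kb and 5.25 kb of it. Of its DMSO regions 88.0% were lost in WT and 97.2% in mutant cells, values close to those of all far regions. Only 14 of its 168 annotated segments overlapped a far peak in WT DMSO and 25 in mutant DMSO, so most segments carried none. The T cell receptor alpha and delta locus, Tra/Trd, is not rearranged in the B lineage. It held 75 far regions, of which 33, 2, 67 and 2 had a peak in the 4 lists. The lambda light chain locus Igl held 8, with 6, 3, 8 and 1.

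The heavy chain locus Igh ran against the excess of the mutant. It held 7 far regions over 2754 kb and 215 segments, of which 6 had a peak in WT DMSO, 2 in WT GSK343 and none in either mutant list. The WT DMSO folds of the 6 ranged from 2.23 to 2.70, around the median of 2.44 for far peaks of that list. Outside the receptor loci 3430 far regions remained, of which 88.3% were lost in WT and 95.3% in mutant cells.

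The widest far region, chr8:120874951-120903909, spanned 28.96 kb, 118 kb beyond the gene for the myeloid and B cell transcription factor Irf8, on the side of Foxf1, a forkhead gene of the lung and gut mesenchyme. It overlaps the lncRNA Gm26878. In WT DMSO 3 peaks covered 25550 bp of it at a fold of up to 3.58, and in mutant DMSO a single peak covered 28245 bp at 4.07. In WT GSK343 5 peaks covered 10621 bp, and in mutant GSK343 7 peaks covered 11167 bp. The mark was thus broken into narrower peaks under GSK343, which covered 41.6% of the WT and 39.5% of the mutant DMSO bases. Of the 6 widest far regions, this one kept the largest share of its DMSO bases in both genotypes.

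The other 5 were between Tpra1 and Plxna1 (27.4 kb), between the kidney and forebrain regulator Lhx1 and Mrm1 (25.1 kb), between A530021J07Rik and Tmc3 (24.2 kb), between Saraf and Dusp4 (23.9 kb) and between the B lineage factor gene Ebf1 and Clint1 (22.6 kb). Each was covered by 1 or 2 peaks in mutant DMSO and by 2 to 8 in WT DMSO. In the first 3, GSK343 peaks covered 15.5 to 21.4% of the WT DMSO bases and 11.0 to 16.4% of the mutant ones. The regions beside Saraf and beside Clint1 retained 8.05% and 14.9% in WT and had no peak in mutant GSK343. They were therefore the widest far regions lost in the mutant, ahead of chr12:109195376-109215483 between Begain and the imprinted gene Dlk1, where a mutant DMSO peak of 20108 bp had no GSK343 counterpart. That region was also the widest one lost in WT, where 5 peaks covered 7366 bp of it, ahead of chr9:32984036-33003170 beside Ets1 (19.1 kb) and chr6:50912150-50930944 beside Npvf (18.8 kb).

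The gap between Lrrc3b and Oxsm on chromosome 14 went against the overall order of the genotypes. Of its 43 far regions, 29, 8, 17 and 1 had a peak in the 4 lists. With DMSO, peaks covered 46910 bp in WT and 15499 bp in the mutant, and with GSK343 6539 bp and 836 bp. A similar reversal was seen over the lncRNA Gm46959 between Npvf and Gm38821 on chromosome 6, where DMSO peaks covered 55.0% of the gene in WT and 21.7% in the mutant. Over the far regions of that whole gap the DMSO peaks covered 112275 bp in WT and 147570 bp in the mutant, the usual order. These examples were picked after their values were seen.

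**Figure D4:**
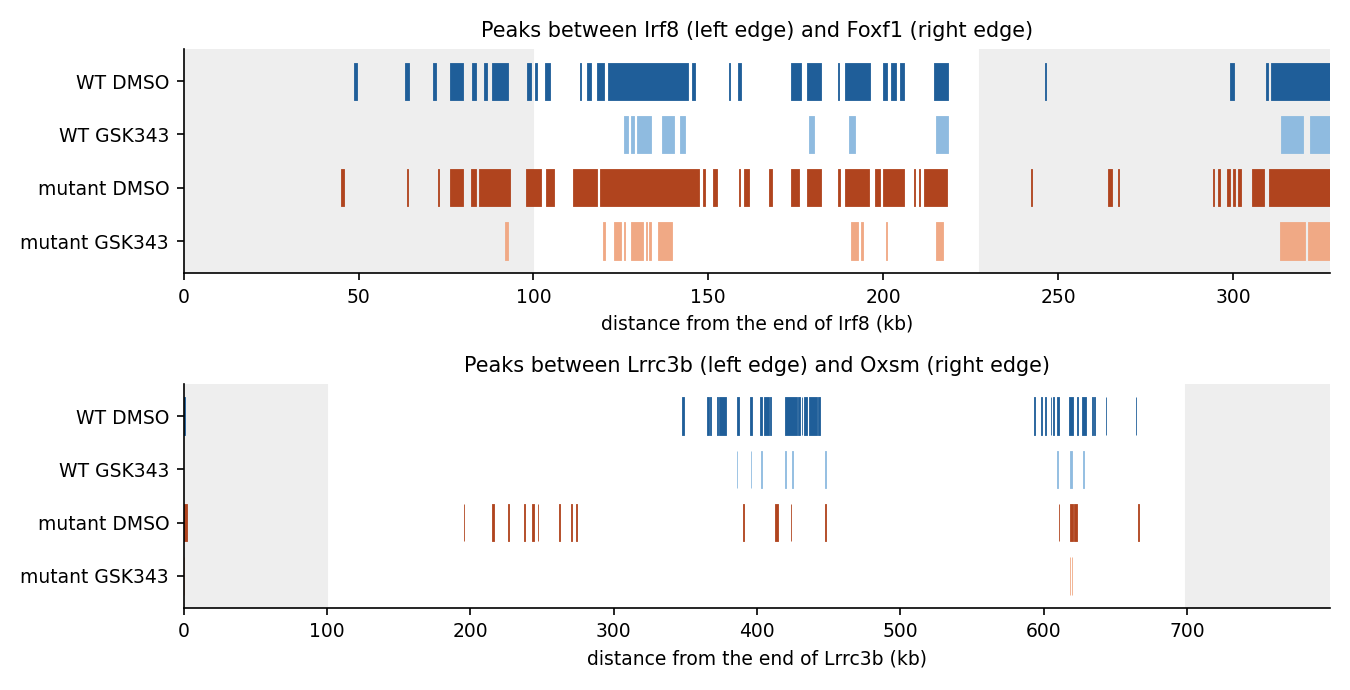
Peaks of the 4 lists (coloured blocks, one row per list) along 2 gaps between coding genes, by distance in kb from the end of the left gene, with the outer 100 kb on each side, where regions do not count as far, shaded. Between Irf8 and Foxf1 the long DMSO blocks are replaced by short separate GSK343 blocks in both genotypes, and between Lrrc3b and Oxsm the WT DMSO blocks are more numerous than the mutant DMSO blocks (far regions with a peak, 29 against 17).

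Among the far regions present in all 4 lists, the highest WT DMSO fold belonged to chr17:4626167-4626609, inside the lncRNA Gm34259, 368 kb from the chromatin remodeller gene Arid1b. Its fold was 9.70 with DMSO and 3.98 with GSK343 in WT, and 8.46 with DMSO and 93.9 with GSK343 in the mutant. At 443 bp it was far narrower than the median of 7217 bp for regions in all 4 lists, and its fold in mutant GSK343 was the highest of any far peak in that list. The next 4 regions had the more usual form. They lay over 9530059O14Rik (15953 bp, WT DMSO fold 4.41), over the start of Tunar (2938 bp, 4.14), between Rragc and the POU factor gene Pou3f1 (5160 bp, 4.04) and between the forkhead gene Foxd1 and Tmem174 (11685 bp, 3.99). In these 4, GSK343 peaks covered 35.0 to 62.3% of the WT DMSO bases and 26.7 to 60.1% of the mutant ones. The 6 most distant far regions lay between 1562 and 1772 kb from a coding gene. All were under 1 kb wide and none had a GSK343 peak, and 2 of them were in Igk.

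Gene families were set by the prefix of the symbol. Genes for developmental transcription factors were the nearest coding gene of 178 far regions, or 4.75% (4.11 to 5.48%), and made up 3.46% of the 2344 genes that flank the gaps. The first share counts regions and the second counts genes, and the difference was not tested. For the 82 regions in all 4 lists the share was 12 of 82, or 14.6% (8.57 to 23.9%), and these 12 lay nearest to 7 genes. The 178 regions lay nearest to 34 genes. Sall3 alone had 49 of the 178, Foxp1 23, Foxl1 13, Gata6 11 and Foxf1 10. Near Gata6, a regulator of endoderm and heart development, 8, 4, 8 and 4 of the 11 regions had a peak in the 4 lists. Near Sall3 the counts were 14, 1, 47 and 1 of 49, so the 2 neighbourhoods differed in how many regions held a GSK343 peak. Cadherin genes were nearest to 31 regions (0.827%, 0.583 to 1.17%), a share close to their 0.939% of the flanking genes. Synaptic adhesion genes (11, 0.293%) and olfactory or vomeronasal receptor genes (6, 0.160%) had smaller shares than their 0.981% and 0.939% of the flanking genes.

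Of the far regions, 1148 (30.6%) overlapped an annotated noncoding gene, 823 of them an lncRNA, and 2600 overlapped no annotated gene. Regions over an lncRNA were lost in 83.5% (79.6 to 86.8%) of cases in WT and 92.4% (90.1 to 94.1%) in mutant cells, and regions over no gene in 90.5% (88.6 to 92.1%) and 96.3% (95.5 to 97.1%). The regions over lncRNAs were also wider, with a median of 913 bp against 761.5 bp. In all, 435 noncoding genes were overlapped, comprising 333 lncRNA genes, 49 receptor gene segments, 37 pseudogenes, 4 miRNA genes, 3 snRNA genes, 2 misc_RNA entries, 1 snoRNA gene and 6 further entries, mostly whole receptor loci. Of the lncRNA genes, far peaks of WT DMSO overlapped 238, of WT GSK343 54, of mutant DMSO 301 and of mutant GSK343 46, and 31 were overlapped in all 4 lists.

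Several of these lncRNAs host miRNAs. Mir124-2hg, the host gene of a copy of the neuronal miRNA miR-124, was covered over 52.7% of its 10151 bp by the DMSO and 9.71% by the GSK343 peaks of WT, and over 70.3% and 21.4% by those of the mutant. Tunar, an lncRNA of pluripotent and neural cells, was covered over 3.52%, 1.83%, 3.87% and 1.96%, all of it near its start. The coverage of both was lower under GSK343 but not absent. A930011G23Rik, beside Rasgef1b, had the most bases in merged far regions of any lncRNA outside the receptor loci (90842 bp), with 36966, 9761, 87187 and 5598 bp in the 4 lists. Gm39816, in the Ebf1 to Clint1 gap, was covered over 37.2%, 3.23%, 69.0% and 0.208%. Mir100hg, which hosts miR-125b-1, was covered over 3.54%, 0.0985%, 7.49% and 0.106%. Morrbid was covered over 5.10% in WT DMSO and 13.4% in mutant DMSO, had no peak in WT GSK343 and was covered over 0.373% in mutant GSK343. Celrr ran the other way, with a WT DMSO peak over 4.96% of the gene and no peak in the other 3 lists, and Pldi was covered over 11.7% in mutant DMSO alone.

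The 4 miRNA genes in far regions were Mir124a-2, the overlapping entry Gm51272, Mir125b-1 and Mir137. In WT DMSO and in mutant DMSO each was covered over its whole length, and no far peak of WT GSK343 reached any of them. In mutant GSK343, Mir124a-2 and Gm51272 were covered whole, Mir137 over 4 bases and Mir125b-1 not at all. Entries for 2 of the 4 genes were matched in RefSeq on GRCm38.p6, and their mature products are shown 5′ to 3′ with the seed, bases 2 to 8, in capitals, because the seed sets which messages a miRNA binds. Mir125b-1 is on the plus strand at chr9:41581926-41582002 and Mir137 on the plus strand at chr3:118433857-118433929. No seed was shared between these 4 mature miRNAs.
mmu-miR-125b-5p: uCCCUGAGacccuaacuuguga
mmu-miR-125b-1-3p: aCGGGUUAggcucuugggagcu
mmu-miR-137-5p: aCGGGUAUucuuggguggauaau
mmu-miR-137-3p: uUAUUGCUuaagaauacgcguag

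CG content of lncRNA starts was compared because it is a feature of sequence that the choice of regions did not use. Start windows of 300 bases were available for 265 of the 435 noncoding genes, and 110 windows of 86 genes lay in a far region. Their median CG count was 5, and 24.5% had at least 10 CG. Among the 1904 noncoding windows at least 100 kb from a coding gene that touched no far region, the median was 3 and 4.62% had at least 10. Over all noncoding windows in the table the median was 4 and 19.1% had at least 10, and over all windows, most of them of coding genes, 44.0% did. Marked starts in the deserts were thus richer in CG than unmarked ones, but poorer than the set that includes coding genes. Their excess over noncoding starts in general was slight and was not tested. Windows kept under GSK343, meaning that a GSK343 peak overlapped the window itself, were richer again, with 57.1% of 21 windows at 10 CG or more in WT and 70.0% of 20 in mutant cells, against 15.8% of 57 and 16% of 75 lost windows. Windows of a gene can overlap each other. The CG-richest window of each gene was therefore taken, separately among kept and among lost windows. The median was 12.5 CG in the 12 kept and 4 in the 48 lost genes of WT. In the mutant it was 15 in the 12 kept and 5 in the 64 lost genes. Gm13652 had windows of both kinds and counts in both groups of each genotype, with 23 CG as kept and 4 as lost. The ranges overlapped, from 4 to 38 CG in kept and from 0 to 33 in lost genes of WT, and from 3 to 38 and 0 to 33 in the mutant. Kept genes include 9530059O14Rik and Tunar in both genotypes and Mir100hg in the mutant alone, and 5730522E02Rik is the lost gene with the most CG in both, as printed above. The comparison is a description, and a CG count does not mark a binding site.

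**Figure D5:**
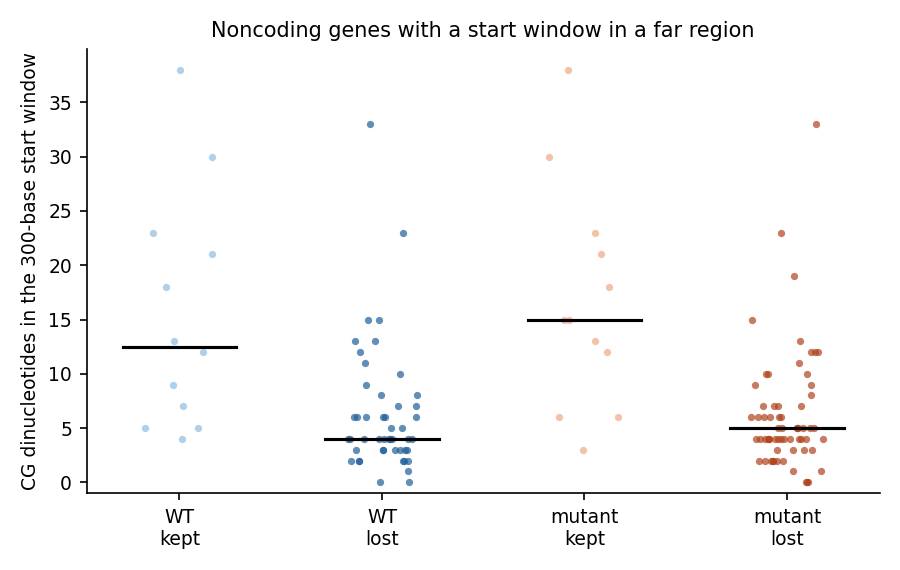
Number of CG dinucleotides in the 300-base start window (vertical axis) of noncoding genes whose window lies in a far region and overlaps a DMSO peak, by genotype and by whether a GSK343 peak overlapped the window (kept) or not (lost). Each point is the CG-richest window of a gene among its kept or among its lost windows, so that Gm13652 has a point in every group. The line is the median, which is 12.5 for kept and 4 for lost genes in WT and 15 and 5 in mutant cells.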

How the data were processed

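H3K27me3 ChIP-seq of splenic B cells was analysed from 4 deposited lists of broad peaks, 1 per genotype and treatment. Per the submitters' processing notes, Bowtie2 2.4.2, SAMtools 1.12, MACS2 2.2.7.1, bedtools 2.29.2, deepTools 3.5.1 and the build mm10 were used, and their settings are not given in the sources used here. Per the file names, the authors took out blacklisted peaks. The deposited fold is a ratio of ChIP to background at a peak, and the −log10 of the p-value and q-value are also as the authors' caller wrote them, with a smallest −log10 q-value of 1.03 to 1.07 per list. Of 39495 (DMSO) and 11903 (GSK343) WT peaks, 39233 and 11854 lay on chromosomes 1 to 19, and of 49803 and 10847 mutant peaks, 48321 and 10705 did.

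Peaks sharing at least 1 bp were merged, and the distance to the nearest of 20665 protein-coding gene bodies was taken from a RefSeq table of GRCm38, the same build as mm10. Positions count from 1. Shares carry 95% Wilson intervals. Regions named were the 6 widest, the 6 most distant, the 5 of highest WT DMSO fold in all 4 lists and, per genotype, the 3 widest lost and the 3 of highest fold found under GSK343 without a DMSO peak. Noncoding genes set for naming were, by covered bases, the top 20 with a symbol of their own, all miRNA genes and the top 5 of the rest, and not all of them are described. Other noncoding genes, among them Gm27572 and Gm29418, fell outside this rule and were named with their values known. Gene lists and members were chosen with earlier results of these data known. The split of receptor loci, the gaps shown and the printed start windows were chosen after values were seen. Merging and distances were tested on 20 simulated sets with known answers, all recovered, and against bedtools 2.31.1, which gave the same 55860 regions and 3748 far regions. Scripts ran in Python 3.11.15 (pandas 2.3.3, numpy 2.4.6, scipy 1.17.1), with matplotlib 3.10.9 for plots. Alternatives covered the distance limit, thresholds on peaks, merging, the gene set, the definition of kept and the receptor loci. Repeats, which the study's title concerns, and the X and Y chromosomes were not analysed here.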

Additional observations from a re-analysis of the deposited data

How the results depend on the processing

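No paired analysis was possible because each genotype and treatment is 1 peak list. Across 10 alternatives (1 of them, leaving out the receptor loci, chosen after seeing the data) the lost share stayed higher in far than in other regions in both genotypes. The other regions include those overlapping a coding gene, of which 64.0% were lost in WT and 77.2% in mutant cells. Intergenic regions within 100 kb of a gene, at 87.6% and 94.7%, were near the far regions at 88.2% and 95.4%. The alternatives were not run against that class. Of 66 values, 20 stayed within 1.5 times (counts and widths) or within the interval of the reported value (shares and their differences), and 46 did not. Only the differences could change sign, and 0 of them did. Below, lost shares are WT then mutant, and differences are far minus other regions in percentage points. With a limit of 50 kb there were 7569 far regions and 929 noncoding genes. At 200 kb there were 1676 and 190, the mutant lost share was 96.8% and its difference 9.89. With −log10 p of at least 5 there were 269 regions, a median width of 3067 bp, 102 noncoding genes, lost shares of 74.5% and 78.6%, and differences of 29.7 and 23.6. With a fold of at least 3 these were 158, 3082.5 bp, 63, 61.8% and 60%, and 36.6 and 22.7. With the 10705 top peaks of each list they were 639, 1352 bp, 177, 64.3% and 70.8%, and 25.2 and 25.4. Without peaks narrower than 1 kb they were 1489, 2015 bp, 278, a mutant lost share of 96.8%, and 18.5 and 11.5. Merging peaks up to 3 kb apart gave 2168 regions, 84.8% and 93.3%, and 19.95 and 15.6. With genes of every biotype setting the distance there were 361 regions, lost shares of 94.8% and 96.1%, and a WT difference of 18.3. When a region counted as kept only with 50% of its DMSO bases covered, lost shares were 98.2% and 99.7%, and differences 3.79 and 0.918. The size of the loss therefore depends on the thresholds on peaks, and the mutant exceeded WT except at a fold of at least 3. No value here has an error between replicates, and the sequencing depth behind the lists is not known.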

Other observations

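The regions of highest fold found under GSK343 without a DMSO peak of the same genotype held GSK343 peaks of under 1 kb, and 2 of the 6 lay in Igk. In WT cells they were chr4:10492218-10492546 between Gdf6 and 2610301B20Rik (329 bp, fold 3.18), chr17:4092659-4093482 between Nox3 and Arid1b (824 bp, 3.17) and chr6:69936506-69936948 in Igk (443 bp, 3.07). In mutant cells they were chr18:48817601-48818198 (598 bp, 2.99), chr13:16607214-16607412 between Inhba and Sugct (199 bp, 2.93) and chr6:70172239-70174893 in Igk (a GSK343 peak of 214 bp in a region of 2655 bp, 2.93). The last of these held a peak in WT under both treatments and in mutant cells under GSK343 alone, and it was the only far region with that combination.

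Density per chromosome ranged from 2.43 far regions per Mb of space at least 100 kb from a coding gene on chromosome 17 to 14.8 on chromosome 6, which holds Igk. Chromosome 17 also had the lowest lost share, 68.4% in WT and 87.8% in mutant cells, over 19 and 41 DMSO regions, and chromosome 10 the highest, 98.4% and 99.2%. Among single noncoding genes, the 1718 bp lncRNA Gm27572 was covered whole in both DMSO lists and over 8.61% and 25.8% in WT and mutant GSK343. Gm29418, 3567 bp long, was covered whole in both DMSO lists and over 19.9% and 13.3% under GSK343.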
